A study of Mus musculus with 6 samples.

Results

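Oxidative phosphorylation is carried out in the inner mitochondrial membrane by the electron transfer complexes I to IV and by complex V, the ATP synthase. Complexes I and II take electrons from NADH and succinate, ubiquinone and cytochrome c pass them on through complexes III and IV to oxygen, and complex V uses the proton gradient that results to make ATP. Nuclear genes encode most of the subunits and all of complex II, while the mitochondrial DNA encodes a small core set that is transcribed inside the organelle. Cartilage has few vessels, and its chondrocytes are known for relying heavily on glycolysis.

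The genes described here were the entries typed as mRNA whose symbols begin with Ndufa, Ndufb, Ndufc, Ndufs, Ndufv, Uqcr, Cox4 to Cox8 or Atp5, or are Sdha, Sdhb, Sdhc or Sdhd, together with the 13 protein-coding genes of the mitochondrial DNA. They made up 105 of the 44788 entries of the count table, 92 of them nuclear. The nuclear genes comprised 36 of complex I, 4 of complex II, 8 of complex III, 20 of complex IV and 15 of complex V, and 9 assembly factors or related genes whose symbols match the same pattern (Ndufaf1 to Ndufaf7, Atp5s and Atp5sl). Ndufa4 and its relative Ndufa4l2 were placed with complex IV, where the Ndufa4 protein is now known to sit. The 13 mitochondrial genes are typed as ncRNA in the table although they encode proteins, and the symbols COX1, COX2, ND1 and so on are used for them as the table gives them.

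RNA was sequenced on the Ion Proton platform from cultured chondrocytes of the femoral epiphysis of C57BL/6 mice, given as postnatal day 1, with 3 groups of 2 libraries each. The cells grew with 10% serum and all groups received 0.1% DMSO. The TGF-alpha plus gefitinib group received gefitinib at 10 µM for 30 min and then gefitinib with TGF-alpha at 10 ng/ml for 48 h, the TGF-alpha group received the ligand alone for 48 h, and the control group received the vehicle for 48 h. TGF-alpha binds and activates the epidermal growth factor receptor, whose kinase gefitinib blocks. The series design names PBS instead of DMSO for the control and writes P2 for the cells, which it does not explain. None of the 3 groups received gefitinib without the ligand. An effect of gefitinib itself and its block of the response to the ligand therefore cannot be told apart here. Whether replicates came from separate cultures or animals is not stated in the sources used here, and p-values then measure the spread between these samples alone, part or all of which may be technical.

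Total counts lay between 12317407 and 16096263 per library. The 8 chondrocyte markers, Col2a1 and Acan among them, were detected in all groups, and their summed level was 54720 to 57570 CPM (counts scaled to library size) with TGF-alpha plus gefitinib, 32890 to 34000 CPM with TGF-alpha and 62260 to 66810 CPM in control. All 8 fell with TGF-alpha against control, and all 8 were higher with TGF-alpha plus gefitinib than with TGF-alpha. Of these 8, 5 were lower and 0 higher with TGF-alpha plus gefitinib against control. The cartilage mRNAs were thus highest in control and lowest with TGF-alpha, and their part in the results below was not tested. The 13 markers of skeletal muscle, a tissue rich in some of the isoforms below, summed to at most 9.04 CPM with TGF-alpha plus gefitinib, 11.5 CPM with TGF-alpha and 13.6 CPM in control, and 2 of them had no count in any library. The 7 adipocyte markers summed to 4.62 to 8.27 CPM over all libraries. The 8 osteoblast markers summed to 119.4 to 121.4 CPM with TGF-alpha plus gefitinib, 85.1 to 92.0 CPM with TGF-alpha and 178.9 to 182.1 CPM in control, and the 10 markers of macrophages and blood cells, of which the leukocyte marker Ptprc had no count, to 6.51 to 9.04, 12.7 to 15.7 and 5.46 to 6.11 CPM. The 6 endothelial markers, 3 of them with no count in any library, summed to at most 0.137, 1.80 and 0.234 CPM. The part of these other lists in the results was not tested either. In such bulk samples, fewer cells of a type and less RNA per cell cannot be told apart.

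The nuclear genes together summed to 6560 and 6871 CPM in the TGF-alpha plus gefitinib libraries, 6301 and 6378 CPM in the TGF-alpha libraries, and 5952 and 5902 CPM in the control libraries. The 13 mitochondrial genes summed to 9099 and 9932 CPM with TGF-alpha plus gefitinib, 8045 and 8246 CPM with TGF-alpha, and 8051 and 8203 CPM in control. For the nuclear sum the 3 groups did not overlap and lay in the order TGF-alpha plus gefitinib, TGF-alpha, control. The single gene Ndufa4l2 made up a large share of the step between TGF-alpha and control: without it the sums were 6364 and 6669 CPM with TGF-alpha plus gefitinib, 5937 and 6009 CPM with TGF-alpha, and 5778 and 5732 CPM in control, in the same order and without overlap. For the mitochondrial sum the TGF-alpha plus gefitinib libraries lay above the rest, whereas the TGF-alpha and control libraries overlapped. Without COX1, the most abundant of the 13, the sums were 5175 and 5845 CPM with TGF-alpha plus gefitinib, 4423 and 4450 CPM with TGF-alpha, and 4633 and 4726 CPM in control, so no groups overlapped and TGF-alpha was lowest. Mitochondrial over nuclear counts came to 1.39 and 1.45 with TGF-alpha plus gefitinib, 1.28 and 1.29 with TGF-alpha, and 1.35 and 1.39 in control. With 2 libraries a group an exact permutation test of such sums cannot give a two-sided p below 0.33, so no test of them is reported.

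**Figure D1:**
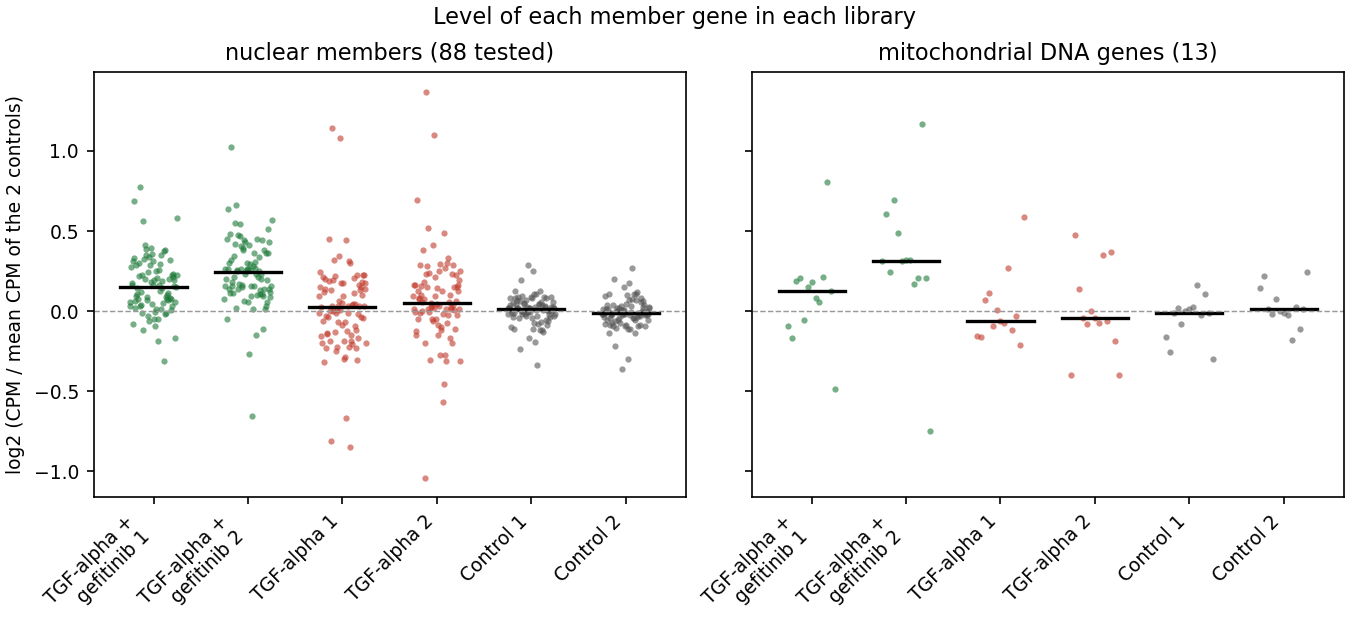
Each point is a gene in a library, plotted as log2 of its CPM over the mean CPM of the 2 control libraries (vertical axis) for the 88 tested nuclear genes (left) and the 13 mitochondrial DNA genes (right), and the bar is the median of the library. The medians of both TGF-alpha plus gefitinib libraries lie above those of the other 4 libraries in both panels.

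Levels differed widely within the set. Per kb of transcript, the highest was COX1, the catalytic subunit of complex IV, with 2590 CPM per kb under TGF-alpha plus gefitinib, 2400 CPM per kb under TGF-alpha and 2230 CPM per kb in control, and it alone held 41.1% to 46.0% of the mitochondrial counts. CYTB, the cytochrome b of complex III, followed with 1190, 1020 and 1010 CPM per kb in the same order of groups. ND6, the only one of the 13 that lies on the other strand, was lowest with 1.69, 2.93 and 2.59 CPM per kb. Among the nuclear genes, Atp5b, the catalytic beta subunit of the ATP synthase, and Cox4i1, the common form of subunit IV of complex IV, led in control with 370.5 and 321 CPM per kb. The median nuclear subunit of complex I stood at 57.8 CPM per kb with TGF-alpha plus gefitinib, 48.1 with TGF-alpha and 49.0 in control, and that of complex V at 94.9, 87.8 and 78.7 CPM per kb. Assembly factors were lower, with medians of 5.71, 6.64 and 5.64 CPM per kb.

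A few tissue-restricted isoforms were at or near zero. Cox7b2 and Cox8c, known from testis, and Cox8b, known from heart, muscle and brown fat, had no count in any library, and Cox7a1, the heart and skeletal muscle form of subunit VIIa, had between 0 and 4 counts. These 4 genes did not pass the filter on low counts. The other 88 nuclear genes and all 13 mitochondrial genes were tested with edgeR's quasi-likelihood test, with Benjamini-Hochberg adjustment over 15362 genes, and genes with an adjusted p under 0.05 are described as called. The 3 comparisons share libraries in pairs, and so their results are not independent of each other. Over all 3 comparisons, 45 nuclear genes were called at least once (51.1%) and 43 never, and 10 of the 13 mitochondrial genes were called at least once (76.9%), beside 42.4% of all tested genes.

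TGF-alpha against control asked what activating the receptor did. The 3 largest called changes of the nuclear set were in alternative forms of complex IV subunits, with Cox6b2 and Ndufa4l2 higher and Cox6a2 lower, while most subunits moved little: 84 of the 88 tested genes stayed within 0.5 of zero on the log2 scale. Of the 88, 19 were called higher (21.6%), against 15.9% of all tested genes, and 4 were called lower (4.55%), against 14.0% of all tested genes. The median log2 fold change of the nuclear genes was 0.04, beside 0.00 for all tested genes. Calls higher fell on 6 of 36 genes of complex I, 2 of 4 of complex II, 2 of 8 of complex III, 6 of 16 of complex IV and 3 of 15 of complex V, and on none of the 9 assembly factors and related genes (0 also at an unadjusted edgeR p under 0.05, and 0 by DESeq2). The count was sensitive to single libraries: without control 1 it was 10, without control 2 it was 5, without TGF-alpha 1 it was 9 and without TGF-alpha 2 it was 7, and the count lower was 0 without control 2 and 1 without either TGF-alpha library. The share called higher was then no longer above that of all tested genes, at 11.4% against 11.5% without control 1, 5.68% against 11.2% without control 2, 10.2% against 11.6% without TGF-alpha 1 and 7.95% against 11.4% without TGF-alpha 2. The same held by DESeq2, with 7 genes (7.95%, against 11.4%), and with upper-quartile scaling, with 10 genes (11.4%, against 14.6%). Only the calls of Ndufa4l2, Cox6b2, Cox4i2 and Cox7b held in all 13 alternative analyses that were run.

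Ndufa4l2 encodes a paralog of Ndufa4 that is known to be induced by hypoxia and to restrain respiration. It had 195.5 and 201.9 CPM with TGF-alpha plus gefitinib, 363.9 and 368.6 CPM with TGF-alpha, and 174.1 and 170.2 CPM in control. The TGF-alpha libraries stood far above the other 4, and no groups overlapped. The gene (chr10:127514967-127517154, plus strand, GRCm38) rose 2.13-fold with TGF-alpha against control (log2 1.09 ± 0.05 SE, edgeR adjusted p = 2.97e-10). It fell by 0.88 on the log2 scale with TGF-alpha plus gefitinib against TGF-alpha (SE 0.05, edgeR adjusted p = 2.64e-09). Against control it remained 1.16-fold higher with TGF-alpha plus gefitinib (log2 0.21 ± 0.05 SE, edgeR adjusted p = 0.0139), a call that was lost without control 1 (log2 0.22), without control 2 (log2 0.19) or without TGF-alpha plus gefitinib 2 (log2 0.18).

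Ndufa4, the common form, took another course. It had 62.0 and 63.6 CPM with TGF-alpha plus gefitinib, 49.3 and 47.8 CPM with TGF-alpha, and 47.0 and 47.2 CPM in control. Here the TGF-alpha plus gefitinib libraries stood apart, and TGF-alpha and control were close (log2 0.04 ± 0.07 SE, edgeR adjusted p = 0.687). Ndufa4 (chr6:11900292-11907497, minus strand) was 1.29-fold higher with TGF-alpha plus gefitinib than with TGF-alpha (edgeR adjusted p = 6.46e-04) and 1.33-fold higher than in control (edgeR adjusted p = 0.00127). Per kb of transcript, Ndufa4l2 over Ndufa4 came to 1.53 and 1.54 with TGF-alpha plus gefitinib, 3.57 and 3.73 with TGF-alpha, and 1.79 and 1.74 in control. The ratio was highest in the TGF-alpha libraries, and with TGF-alpha plus gefitinib it lay below its control values.

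Cox4i2 is the form of subunit IV known from lung and from oxygen-sensing cells. It had 41.5 and 47.1 CPM with TGF-alpha plus gefitinib, 55.5 and 52.9 CPM with TGF-alpha, and 42.6 and 38.7 CPM in control. With TGF-alpha it rose 1.34-fold against control (log2 0.42 ± 0.08 SE, edgeR adjusted p = 0.00144), and the other 2 groups overlapped. With TGF-alpha plus gefitinib it fell by 0.29 against TGF-alpha on the log2 scale (edgeR adjusted p = 0.0138), a call lost without TGF-alpha 1 (log2 -0.26) or without TGF-alpha plus gefitinib 1 (log2 -0.22). Its common partner Cox4i1 had 278.0 and 304.1 CPM with TGF-alpha plus gefitinib, 233.4 and 248.4 CPM with TGF-alpha, and 242.7 and 235.7 CPM in control. Cox4i1 rose 1.21-fold with TGF-alpha plus gefitinib against TGF-alpha (edgeR adjusted p = 0.00138) and 1.22-fold against control (edgeR adjusted p = 0.00445, lost without control 2, log2 0.26), and did not differ detectably between TGF-alpha and control.

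The same layout held for Cox6b2, the form of subunit VIb known from testis, at far lower levels. It had 5.14 and 4.16 CPM with TGF-alpha plus gefitinib, 7.72 and 9.02 CPM with TGF-alpha, and 3.98 and 2.99 CPM in control, on 47 to 124 counts a library. With TGF-alpha it rose 2.42-fold against control (log2 1.27 ± 0.23 SE, edgeR adjusted p = 5.26e-04). With TGF-alpha plus gefitinib it fell by 0.84 against TGF-alpha (edgeR adjusted p = 0.00782), lost without TGF-alpha 2 (log2 -0.72) or without TGF-alpha plus gefitinib 2 (log2 -0.70). The common Cox6b1 passed the test in no comparison, with log2 values of -0.06, 0.12 and 0.18 for TGF-alpha plus gefitinib against TGF-alpha, TGF-alpha plus gefitinib against control, and TGF-alpha against control.

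Cox6a2, the heart and skeletal muscle form of subunit VIa, went the opposite way. It had 4.73 and 6.40 CPM with TGF-alpha plus gefitinib, 2.31 and 1.96 CPM with TGF-alpha, and 3.43 and 4.65 CPM in control, on 27 to 80 counts a library. The TGF-alpha libraries were the lowest of the 6. With TGF-alpha it fell by 0.93 on the log2 scale against control (SE 0.29, edgeR adjusted p = 0.0235), lost without control 2 (log2 -0.68), TGF-alpha 1 (log2 -1.05) or TGF-alpha 2 (log2 -0.82). With TGF-alpha plus gefitinib it was 2.58-fold higher than with TGF-alpha (log2 1.37 ± 0.28 SE, edgeR adjusted p = 0.00144). The widely expressed Cox6a1 moved in the same directions by less: it had 177.6 and 166.1 CPM with TGF-alpha plus gefitinib, 143.6 and 142.5 CPM with TGF-alpha, and 159.1 and 168.1 CPM in control. Cox6a1 was 1.20-fold higher with TGF-alpha plus gefitinib than with TGF-alpha (edgeR adjusted p = 0.00175), and with TGF-alpha it fell by 0.19 against control (edgeR adjusted p = 0.0153), a call lost without control 2 (log2 -0.16), TGF-alpha 1 (log2 -0.20) or TGF-alpha 2 (log2 -0.19).

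**Figure D2:**
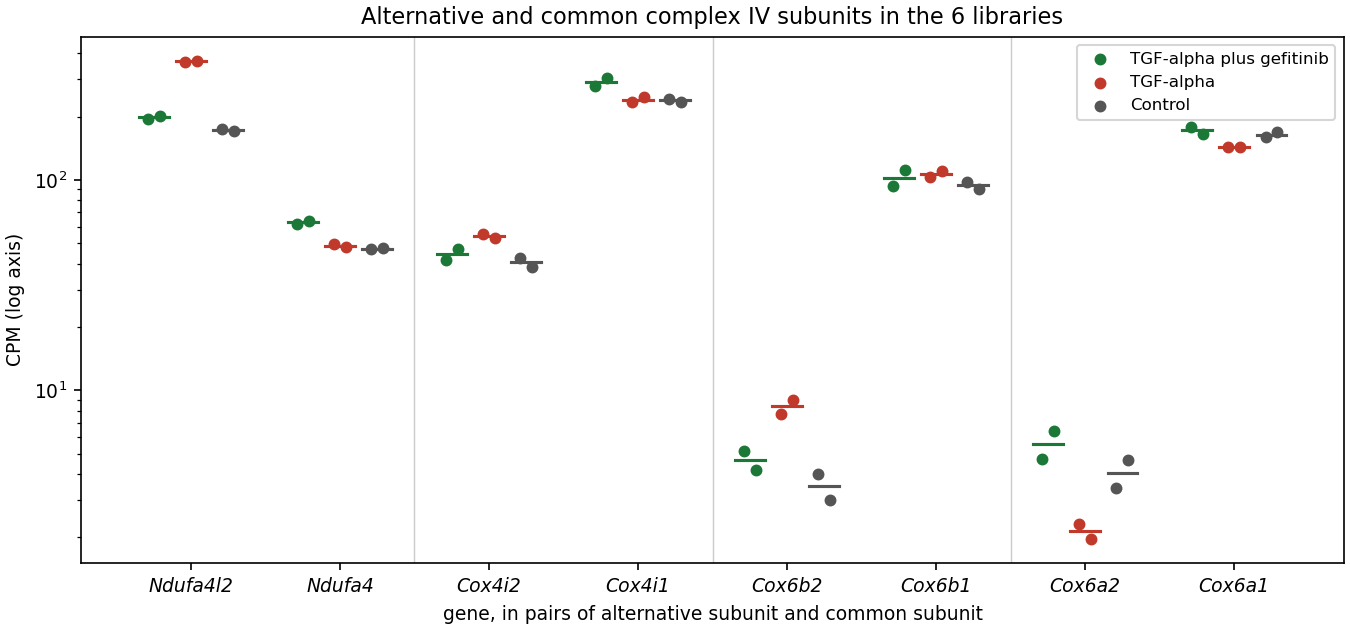
Each point is a library, grouped by gene in pairs of alternative and common subunit of complex IV, with CPM on a log axis, and the bar is the mean of the group's 2 libraries. Ndufa4l2, Cox4i2 and Cox6b2 are highest in the TGF-alpha libraries, Cox6a2 is lowest there, and Ndufa4, Cox4i1 and Cox6a1 reach their highest group mean with TGF-alpha plus gefitinib.

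The promoters of 4 of these complex IV and complex II genes are shown because the genes stand for the different courses: Cox6b2, higher with TGF-alpha, Cox6a1, lower with it, Cox8a, called higher in all 3 comparisons, and Sdhb, called higher in both comparisons of TGF-alpha plus gefitinib. Each runs from 250 bases before to 50 bases after the start (RefSeq, GRCm38.p6), and capitals mark a match to 1 of 3 motifs that are known from promoters of mitochondrial genes: NRF1 (GCGCATGCG), ETS (CCGGAAG) and YY1 (AAGATGGCG), each searched on both strands, with overlapping matches of a motif counted once.
Cox6b2 (chr7:4753045-4753344, minus strand): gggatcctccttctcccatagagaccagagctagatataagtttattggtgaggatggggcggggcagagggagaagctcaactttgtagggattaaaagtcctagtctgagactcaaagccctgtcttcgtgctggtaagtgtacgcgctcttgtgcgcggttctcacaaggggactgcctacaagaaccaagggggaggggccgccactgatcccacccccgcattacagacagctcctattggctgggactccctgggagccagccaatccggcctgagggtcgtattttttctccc
Cox6a1 (chr5:115348909-115349208, minus strand): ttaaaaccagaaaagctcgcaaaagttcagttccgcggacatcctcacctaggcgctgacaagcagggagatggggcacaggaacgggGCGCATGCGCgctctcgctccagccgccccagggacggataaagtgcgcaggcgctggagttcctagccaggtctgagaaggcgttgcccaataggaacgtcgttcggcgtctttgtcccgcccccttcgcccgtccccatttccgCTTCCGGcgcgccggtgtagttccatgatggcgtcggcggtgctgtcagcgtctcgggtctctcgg
Cox8a (chr19:7217567-7217866, minus strand): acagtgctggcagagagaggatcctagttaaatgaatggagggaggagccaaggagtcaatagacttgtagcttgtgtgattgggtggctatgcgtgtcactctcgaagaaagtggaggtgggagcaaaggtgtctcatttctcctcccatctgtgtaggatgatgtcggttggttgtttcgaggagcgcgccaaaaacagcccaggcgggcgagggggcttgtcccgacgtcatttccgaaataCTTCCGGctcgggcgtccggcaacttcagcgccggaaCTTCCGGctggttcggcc
Sdhb (chr4:140961021-140961320, plus strand): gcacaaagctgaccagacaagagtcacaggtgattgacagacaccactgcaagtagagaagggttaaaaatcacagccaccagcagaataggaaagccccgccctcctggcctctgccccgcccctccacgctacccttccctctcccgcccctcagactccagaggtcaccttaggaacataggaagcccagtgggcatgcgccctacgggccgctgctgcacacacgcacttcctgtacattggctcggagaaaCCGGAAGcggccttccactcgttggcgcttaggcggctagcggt
In these windows Cox6a1 held an NRF1 and an ETS match, Cox8a held 2 ETS matches, Sdhb held 1 ETS match and Cox6b2 held none of the 3. Of the 73 nuclear genes with an entry in the promoter table, 10 held NRF1 (13.7%), 17 held ETS (23.3%) and 7 held YY1 (9.59%), against 1.95%, 9.93% and 1.64% of all 27025 genes in the table. The 27025 genes were not limited to genes expressed here, whereas 88 of the 92 nuclear genes passed the filter on low counts, so the sets compared are unlike. A match is a run of letters and not a shown binding site.

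The remaining changes with TGF-alpha against control were small. Cox7b, a small membrane subunit of complex IV, had 39.4 and 45.2 CPM with TGF-alpha against 31.7 and 31.5 CPM in control, a rise of 1.34-fold (edgeR adjusted p = 0.00206). Cox8a, the common form of subunit VIII, was 1.17-fold higher (log2 0.23 ± 0.06 SE, edgeR adjusted p = 0.00727), and lost the call without control 2 (log2 0.17) or TGF-alpha 2 (log2 0.22). The flavoprotein Sdha of complex II and the core protein Uqcrc1 of complex III were called higher by 1.10-fold and 1.13-fold (edgeR adjusted p = 0.0433 and 0.0429), close to the threshold, and both lost the call on leaving out each TGF-alpha or control library in turn, with log2 values of 0.11 to 0.16 for Sdha and 0.12 to 0.22 for Uqcrc1. In complex I, Ndufb3 rose 1.32-fold (edgeR adjusted p = 0.0219, lost without control 1, log2 0.32, or TGF-alpha 2, log2 0.31). Ndufb4, also an accessory subunit of the membrane arm, fell by 0.64 (SE 0.22, edgeR adjusted p = 0.0441, lost without control 1, log2 -0.59, control 2, log2 -0.68, or TGF-alpha 1, log2 -0.45). Ndufb3, Ndufb4 and Cox7b share long near-identical stretches with transcripts of other genes, so how the authors counted such reads could affect them.

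In TGF-alpha plus gefitinib against TGF-alpha, which asked what blocking the receptor kinase did in the presence of the ligand, members of every complex were higher and the 3 alternative isoforms Ndufa4l2, Cox6b2 and Cox4i2 were lower. Of the 88 nuclear genes 26 were called higher (29.5%), against 17.0% of all tested genes, and 3 lower (3.41%), against 16.9%. The median log2 fold change was 0.12, beside 0.01 over all tested genes, and 68 of the 88 values were above zero. Calls higher fell on 11 of 36 genes of complex I, 1 of 4 of complex II, 3 of 8 of complex III, 8 of 16 of complex IV and 3 of 15 of complex V, and again on none of the assembly factors (3 at an unadjusted edgeR p under 0.05, 0 by DESeq2). Fewer were called higher without TGF-alpha plus gefitinib 2 or without TGF-alpha 1, where fewer of all tested genes were called higher too. DESeq2 called 16 higher (18.2%, against 11.4% of all tested genes). The calls of Uqcrq, Sdhb, Ndufa13, Ndufb7, Ndufa4, Cox4i1, Cox6a1, Cox6a2 and Cox7c held in all 13 alternatives, as did the fall of Ndufa4l2.

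Uqcrq, a small membrane subunit of complex III, made the largest rise of the nuclear genes called at a mean of at least 5 CPM. It had 119.2 and 118.4 CPM with TGF-alpha plus gefitinib, 69.6 and 64.3 CPM with TGF-alpha, and 78.9 and 80.7 CPM in control. The 3 groups were clearly apart, with TGF-alpha lowest and TGF-alpha plus gefitinib well above control. The gene (chr11:53427922-53430831, minus strand, GRCm38) was 1.77-fold higher with TGF-alpha plus gefitinib than with TGF-alpha (log2 0.83 ± 0.06 SE, edgeR adjusted p = 8.01e-08) and 1.49-fold higher than in control (log2 0.57 ± 0.06 SE, edgeR adjusted p = 2.98e-05). With TGF-alpha it fell by 0.25 against control (edgeR adjusted p = 0.00617), which was lost without control 2 (log2 -0.24) or TGF-alpha 2 (log2 -0.20). Its neighbours in complex III, Uqcr10 and Uqcr11, were 1.19-fold and 1.24-fold higher with TGF-alpha plus gefitinib than with TGF-alpha (edgeR adjusted p = 0.0488 and 0.0073), and without TGF-alpha plus gefitinib 2 neither was called (log2 0.09 and 0.23). Uqcr11 held in the other alternatives, while Uqcr10 was lost in 9 of the 13, among them 5 of the 6 that left out a library. The catalytic Rieske protein Uqcrfs1, the core protein Uqcrc2 and Uqcrb were called in no comparison.

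Among the nuclear genes of complex I, most of which are accessory, the calls in this comparison fell on accessory subunits. Of the mitochondrial genes of complex I, described below, 5 of 7 were called higher. Ndufa13, also known as GRIM-19, had 195.3 and 201.2 CPM with TGF-alpha plus gefitinib, 147.4 and 157.6 CPM with TGF-alpha, and 154.0 and 154.8 CPM in control. It was 1.30-fold higher with TGF-alpha plus gefitinib than with TGF-alpha (edgeR adjusted p = 5.61e-05) and 1.28-fold higher than in control (edgeR adjusted p = 5.04e-04), and TGF-alpha and control overlapped. Ndufb7, Ndufb2 and Ndufb4, all of the membrane arm, were 1.48-fold, 1.55-fold and 1.72-fold higher with TGF-alpha plus gefitinib than with TGF-alpha (edgeR adjusted p = 0.00135, 0.00994 and 0.0139). Ndufb2 lost the call without TGF-alpha 2 (log2 0.47) or TGF-alpha plus gefitinib 2 (log2 0.51), and Ndufb4 without TGF-alpha 1 (log2 0.59) or TGF-alpha plus gefitinib 2 (log2 0.65). Of the nuclear genes for the catalytic core of complex I, which carries the flavin and the iron-sulfur clusters, Ndufs1, Ndufs3, Ndufs8 and Ndufv1 passed the test in no comparison. Ndufv2 was called higher than in control under both treatments, at 44.7 and 46.6 CPM with TGF-alpha plus gefitinib, 40.2 and 43.8 CPM with TGF-alpha, and 35.9 and 35.8 CPM in control, and Ndufs7 only with TGF-alpha against control. The call of Ndufv2 with TGF-alpha plus gefitinib was lost without control 1 (log2 0.35), control 2 (log2 0.34) or TGF-alpha plus gefitinib 2 (log2 0.32), and its call with TGF-alpha was lost on leaving out each library of those 2 groups in turn or TGF-alpha plus gefitinib 2 (log2 0.16 to 0.29), and that of Ndufs7 on leaving out each of the 4 libraries compared in turn (log2 0.17 to 0.28).

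Complex II is made of nuclear-encoded subunits alone and also works in the tricarboxylic acid cycle. Its iron-sulfur subunit Sdhb had 112.4 and 123.6 CPM with TGF-alpha plus gefitinib, 93.8 and 89.0 CPM with TGF-alpha, and 96.6 and 95.4 CPM in control. It was 1.29-fold higher with TGF-alpha plus gefitinib than with TGF-alpha (edgeR adjusted p = 3.4e-04) and 1.23-fold higher than in control (edgeR adjusted p = 0.00728), the second call being lost without control 1 (log2 0.31), control 2 (log2 0.29) or TGF-alpha plus gefitinib 2 (log2 0.23). The flavoprotein Sdha did not follow it, with 199.4 and 193.9 CPM with TGF-alpha plus gefitinib and 207.7 and 209.8 CPM with TGF-alpha (log2 -0.09 ± 0.05 SE, edgeR adjusted p = 0.202). The membrane anchors Sdhc and Sdhd did not pass this test either (log2 -0.06 and 0.01). Sdhd was called higher than in control under both treatments. It had 84.6 and 82.5 CPM with TGF-alpha plus gefitinib, 81.6 and 84.2 CPM with TGF-alpha, and 73.1 and 70.8 CPM in control. The call was lost in 11 of the 13 alternatives with TGF-alpha plus gefitinib and in 5 with TGF-alpha.

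In complex V the genes Atp5b and Atp5a1 of the catalytic head passed no test. Atp5b had 724.3 and 792.2 CPM with TGF-alpha plus gefitinib, 704.5 and 715.2 CPM with TGF-alpha, and 701.8 and 717.9 CPM in control, and was called in no comparison. Atp5a1, its partner in the head, was not called in any comparison either. Other genes of complex V were: Atp5c1 and Atp5d were called higher than in control under both treatments. Atp5c1 had 111.1 and 110.3 CPM with TGF-alpha plus gefitinib, 102.0 and 102.6 CPM with TGF-alpha, and 93.0 and 90.6 CPM in control. Atp5e was called higher with TGF-alpha plus gefitinib than in each other group. Each of these calls was lost in 1 to 12 of the 13 alternatives. Atp5g1, Atp5g2 and Atp5g3 encode the same mature c subunit of the rotor ring, and they differed in course: Atp5g1 was called with TGF-alpha plus gefitinib against TGF-alpha (22.4 and 21.7 CPM against 15.7 and 16.6 CPM, edgeR adjusted p = 0.00638, lost without TGF-alpha 1, log2 0.41), Atp5g3 in both comparisons with control, and Atp5g2 in none. Atp5g3 had 148.0 and 144.5 CPM with TGF-alpha plus gefitinib, 136.1 and 128.0 CPM with TGF-alpha, and 116.5 and 118.6 CPM in control. It rose 1.24-fold with TGF-alpha plus gefitinib against control (edgeR adjusted p = 0.00207) and 1.12-fold with TGF-alpha against control (edgeR adjusted p = 0.0326), the second being lost without control 1 (log2 0.15), control 2 (log2 0.18) or TGF-alpha 1 (log2 0.12). Atp5g1 shares up to 411 near-identical bases with 20 other annotated genes, so its counts in particular depend on how such reads were placed.

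**Figure D3:**
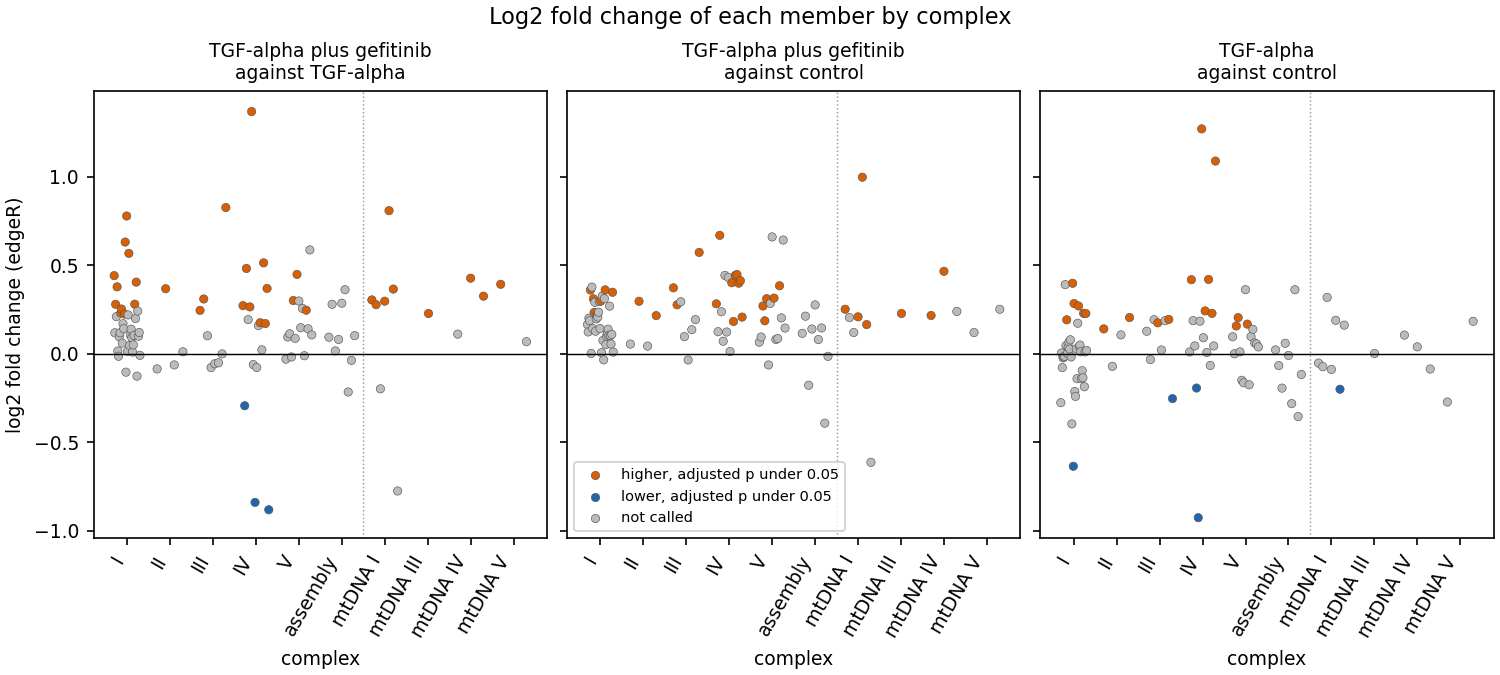
Each point is a tested gene, plotted by its log2 fold change (vertical axis) and its complex (horizontal axis, with mitochondrial DNA genes right of the dotted line), in a panel for each comparison, and colour gives the edgeR call. In TGF-alpha plus gefitinib against control no nuclear or mitochondrial gene is called lower, and 16 of 16 complex IV genes lie above zero.

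TGF-alpha plus gefitinib against control set the combined treatment beside the vehicle, and here the nuclear genes lay above control almost throughout. Of 88 genes 26 were called higher (29.5%), against 5.27% of all tested genes, and 0 were called lower, against 4.26% of all tested genes. The values of 82 of the 88 genes were above zero, with a median log2 fold change of 0.20 (0.00 over all tested genes), and none reached 1 in size. Complex IV stood highest, with 9 of 16 genes called and a median of 0.34, and the calls on complexes I, II, III and V were 7 of 36, 2 of 4, 3 of 8 and 5 of 15, with medians of 0.18, 0.14, 0.23 and 0.20. DESeq2, which gave an adjusted p for 86 of the 88, called 0 lower and 17 higher (19.8%, against 4.17% of all genes with an adjusted p). At an unadjusted edgeR p under 0.05 the count lower was also 0. None of the 9 assembly factors was called (1 higher at an unadjusted p under 0.05, 0 by DESeq2). Fewer were called higher without control 1, control 2 or TGF-alpha plus gefitinib 2, where fewer of all tested genes were called higher too. The calls of Uqcrq, Cox5a, Cox8a, Ndufa4, Ndufa13, Atp5g3 and Atp5j2 held in all 13 alternatives.

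Cox5a, the matrix-side subunit Va of complex IV, showed the largest called change of the nuclear genes in this comparison. It had 28.3 and 24.3 CPM with TGF-alpha plus gefitinib, 18.9 and 18.8 CPM with TGF-alpha, and 16.8 and 16.4 CPM in control. It was 1.59-fold higher with TGF-alpha plus gefitinib than in control (log2 0.67 ± 0.11 SE, edgeR adjusted p = 0.0013) and 1.40-fold higher than with TGF-alpha (edgeR adjusted p = 0.00321, lost without TGF-alpha plus gefitinib 1, log2 0.35). Cox8a had 129.8 and 131.8 CPM with TGF-alpha plus gefitinib, 115.4 and 117.1 CPM with TGF-alpha, and 102.9 and 95.6 CPM in control. Its 3 groups formed a ladder without overlap, and it was 1.32-fold higher with TGF-alpha plus gefitinib than in control (edgeR adjusted p = 4.35e-04) and 1.13-fold higher than with TGF-alpha (edgeR adjusted p = 0.0313), this second call being lost on leaving out each TGF-alpha plus gefitinib or TGF-alpha library in turn (log2 0.16 to 0.18). Atp5j2, the f subunit of the ATP synthase, had 96.6 and 110.7 CPM with TGF-alpha plus gefitinib against 78.6 and 80.0 CPM in control, a rise of 1.31-fold (edgeR adjusted p = 0.00349).

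Cox7b and Cox7c, small subunits of complex IV that cross the membrane, reached similar levels against control by different routes. Cox7b had 42.1 and 43.8 CPM with TGF-alpha plus gefitinib, 39.4 and 45.2 CPM with TGF-alpha, and 31.7 and 31.5 CPM in control, so the groups with ligand overlapped each other. Cox7c had 23.2 and 26.6 CPM with TGF-alpha plus gefitinib, 16.7 and 18.2 CPM with TGF-alpha, and 18.2 and 18.3 CPM in control, so TGF-alpha plus gefitinib alone stood above control. Both were 1.36-fold higher with TGF-alpha plus gefitinib than in control (edgeR adjusted p = 0.00538 for Cox7b and 0.019 for Cox7c), and the calls were lost without control 2 (log2 0.44 and 0.45) and for Cox7c also without control 1 (log2 0.45) or TGF-alpha plus gefitinib 2 (log2 0.35). Cox7a2, the common form of subunit VIIa, had 59.1 and 65.6 CPM with TGF-alpha plus gefitinib, 54.0 and 57.5 CPM with TGF-alpha, and 50.5 and 44.0 CPM in control, and was 1.32-fold higher with TGF-alpha plus gefitinib than in control (edgeR adjusted p = 0.00664, lost without control 2, log2 0.30, or TGF-alpha plus gefitinib 2, log2 0.33). Cox7a2l was called 1.14-fold higher (edgeR adjusted p = 0.0404), a call lost in 12 of the 13 alternatives and on leaving out each of the 6 libraries in turn (log2 0.16 to 0.20). Of the complex IV genes tested, Cox5b, Cox6b1 and Cox6c were called in no comparison.

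Some of the calls above also depended on the method. With TGF-alpha against control DESeq2 did not call Cox6a2 (log2 -0.93), Ndufb3 (0.40), Ndufb4 (-0.64), Atp5g3 (0.16), Sdha (0.14), Uqcrc1 (0.17), Ndufs7 (0.23) or Ndufv2 (0.22). Upper-quartile scaling and the absence of a filter each ended the calls of Atp5g3, Sdha, Uqcrc1, Ndufs7 and Ndufv2 there, and the replicate block those of Ndufb4 (-0.64), Sdha (0.14), Uqcrc1 (0.17) and Ndufv2 (0.23). The block also ended the calls of Uqcr10 (0.24) and of Cox7a2l against control (0.18), and RLE size factors those of Sdha (0.14), Uqcr10 (0.24) and Cox7a2l (0.17). With TGF-alpha plus gefitinib against TGF-alpha DESeq2 did not call Uqcr10 (0.24), Cox8a (0.17), Ndufb2 (0.63), Ndufb4 (0.78), COX2 (0.42), COX3 (0.32) or ATP6 (0.39). Against control it did not call Ndufv2 (0.34), Cox7c (0.44), Cox7a2l (0.17) or COX2 (0.46). In a fit of the 4 libraries compared alone, the calls of Ndufb4 and Ndufv2 with TGF-alpha against control, of Uqcr10 and COX3 with TGF-alpha plus gefitinib against TGF-alpha, and of Cox7a2l against control were lost.

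**Figure D4:**
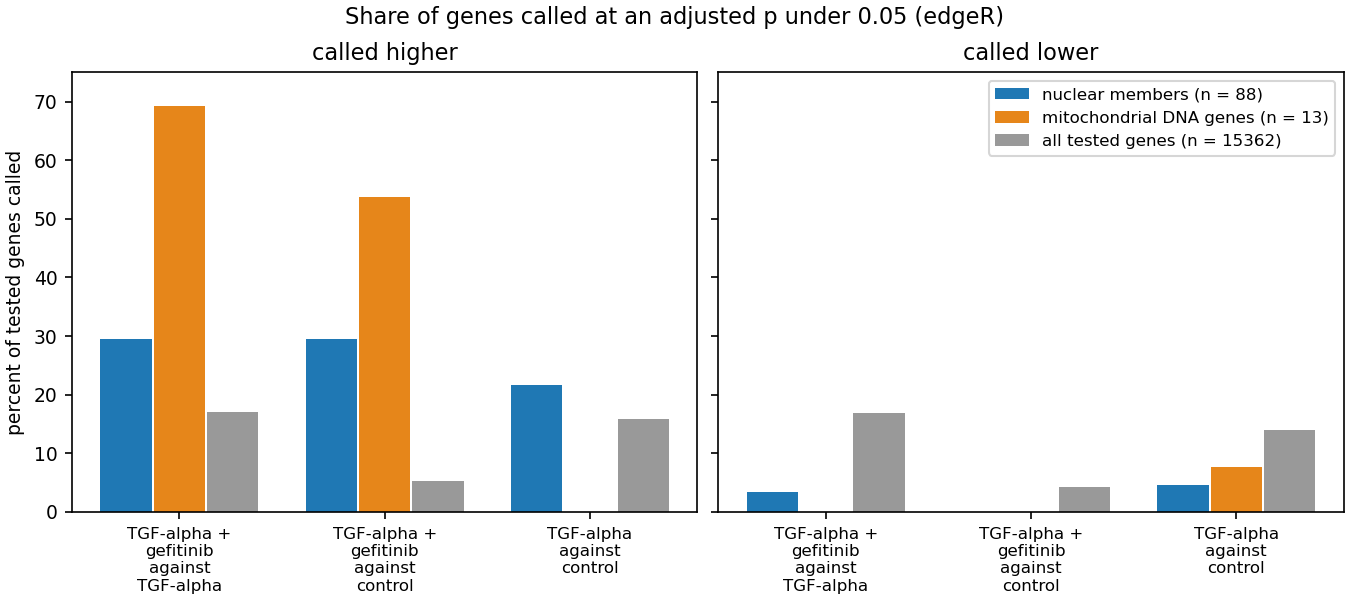
Bars give the percent of tested genes called higher (left) and lower (right) by edgeR in each comparison, for nuclear genes, mitochondrial DNA genes and all tested genes. The largest gap between the nuclear genes and all tested genes is in TGF-alpha plus gefitinib against control, with 29.5% against 5.27% called higher.

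The mitochondrial DNA is transcribed into long precursors that are then cut into the mRNAs of its genes. With TGF-alpha plus gefitinib against TGF-alpha, 9 of the 13 genes were called higher (69.2%, against 17.0% of all tested genes) and 0 lower (against 16.9%), with a median log2 fold change of 0.30. Against control, 7 of 13 were called higher (53.8%, against 5.27%) and 0 lower (against 4.26%), with a median of 0.22. With TGF-alpha against control, 0 of 13 were called higher (against 15.9%) and 1, ND5, was called lower (7.69%, against 14.0%), with a median of 0.00. At an unadjusted edgeR p under 0.05 the counts of 0 were 0 lower, 0 lower and 1 higher, in the same order, and DESeq2 called 0 in each. Without TGF-alpha plus gefitinib 2 the count of 9 became 6, and the count of 7 became 4, and it became 3 without control 1 and 3 without control 2. In the combined treatment against TGF-alpha, the calls of ND1, ND2, ND4, ND4L, ND5 and CYTB held in all 13 alternatives, and against control those of ND4L and COX1.

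ND5, a proton-pumping subunit of complex I, had 1148 and 1213 CPM with TGF-alpha plus gefitinib, 909 and 923 CPM with TGF-alpha, and 1043 and 1062 CPM in control. No groups overlapped, and TGF-alpha was lowest. With TGF-alpha ND5 fell by 0.20 against control (SE 0.04, edgeR adjusted p = 0.00239), and with TGF-alpha plus gefitinib it was 1.29-fold higher than with TGF-alpha (edgeR adjusted p = 1.04e-05) and 1.12-fold higher than in control (edgeR adjusted p = 0.0256, lost without control 1, log2 0.15, control 2, log2 0.18, or TGF-alpha plus gefitinib 2, log2 0.12). ND4, another pumping subunit, had 902 and 899.5 CPM with TGF-alpha plus gefitinib, 719 and 747 CPM with TGF-alpha, and 765 and 794 CPM in control, and was 1.23-fold higher with TGF-alpha plus gefitinib than with TGF-alpha (edgeR adjusted p = 7.46e-05) and 1.16-fold higher than in control (edgeR adjusted p = 0.00635, lost without control 1, log2 0.18). ND1, next to the quinone site, behaved alike, with 678 and 746 CPM under TGF-alpha plus gefitinib, 572 and 580.4 CPM under TGF-alpha, and 602.5 and 593 CPM in control (1.24-fold and 1.19-fold, edgeR adjusted p = 2.03e-04 and 0.00438, the second lost without control 2, log2 0.24). ND2 was called with TGF-alpha plus gefitinib against TGF-alpha (1.21-fold, edgeR adjusted p = 0.00345) and missed the threshold against control (edgeR adjusted p = 0.0576).

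ND4L made the largest change of the 13. It had 89.3 and 115.0 CPM with TGF-alpha plus gefitinib, 50.1 and 66.2 CPM with TGF-alpha, and 54.9 and 47.3 CPM in control. Both TGF-alpha plus gefitinib libraries exceeded the other 4, and TGF-alpha and control overlapped. It was 1.75-fold higher with TGF-alpha plus gefitinib than with TGF-alpha (log2 0.81 ± 0.12 SE, edgeR adjusted p = 1.36e-04) and 2.00-fold higher than in control (log2 1.00 ± 0.13 SE, edgeR adjusted p = 1.48e-04). ND4L and ND4 are read from the same RNA and overlap by 7 bases (chrM:10167-10173, plus strand, GRCm38, from GENCODE transcripts), shown in capitals with 20 bases on each side because the 2 genes gave different sizes of change from a shared transcript.
ND4L and ND4 (chrM:10147-10193): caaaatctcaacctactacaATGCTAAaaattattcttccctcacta
ATP8 and ATP6 likewise overlap, by 43 bases (chrM:7927-7969), and reads inside the overlap cannot be given to either gene alone.
ATP8 and ATP6 (chrM:7907-7989): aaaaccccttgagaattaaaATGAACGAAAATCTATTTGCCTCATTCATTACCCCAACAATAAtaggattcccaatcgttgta
ND4L spans 297 bases, up to 294 of which have a near-identical copy in 1 other annotated gene with its own entry in the count table. Near-identical copies were found for 9 of the 13 mitochondrial genes. Among them were COX1 (up to 1545 bases), COX2 (684), COX3 (783), ND4 (876) and ND5 (954), whose copies have no entry in the count table.

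CYTB and the complex IV genes moved by less. CYTB had 1286 and 1436 CPM with TGF-alpha plus gefitinib, 1162 and 1161 CPM with TGF-alpha, and 1158 and 1158 CPM in control, and it was 1.17-fold higher with TGF-alpha plus gefitinib than with TGF-alpha (edgeR adjusted p = 0.0024) and 1.18-fold higher than in control (edgeR adjusted p = 0.00813, lost without control 1, log2 0.23, control 2, log2 0.23, or TGF-alpha plus gefitinib 2, log2 0.15). COX1 had 3924 and 4086 CPM with TGF-alpha plus gefitinib, 3621 and 3796 CPM with TGF-alpha, and 3417 and 3477 CPM in control. Its groups formed a ladder without overlap, and of the 3 steps only TGF-alpha plus gefitinib against control was called (1.16-fold, edgeR adjusted p = 0.00398), while the others missed the threshold (edgeR adjusted p = 0.0525 against TGF-alpha and 0.0708 for TGF-alpha against control). COX2, COX3 and ATP6 rested on a single library: TGF-alpha plus gefitinib 2 had 416.5, 328 and 255 CPM of them and TGF-alpha plus gefitinib 1 had 297, 226 and 192 CPM, beside 251 to 279, 219.7 to 221.5 and 156 to 184 CPM with TGF-alpha. All 3 were called with TGF-alpha plus gefitinib against TGF-alpha (log2 0.43, 0.33 and 0.39, edgeR adjusted p = 0.00633, 0.0425 and 0.017). Without TGF-alpha plus gefitinib 2 their log2 values were 0.17, 0.04 and 0.18 and none was called, and without TGF-alpha 2 they were 0.35, 0.33 and 0.28 and none was called either; COX3 also lost the call without control 1 (0.33), control 2 (0.33) or TGF-alpha 1 (0.32). COX2 was called against control too (log2 0.47, edgeR adjusted p = 0.0127), not without TGF-alpha plus gefitinib 2 (log2 0.20), control 1 (log2 0.49) or control 2 (log2 0.45).

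ATP8, ND3 and ND6 were called in no comparison. ND3 had 8.70 and 9.43 CPM with TGF-alpha plus gefitinib, 10.1 and 10.7 CPM with TGF-alpha, and 9.37 and 7.39 CPM in control. ND6 had 10 to 28 counts a library, and a change of the size seen in ND1 or ND5 was not detectable at this depth. It had 0.96 and 0.80 CPM with TGF-alpha plus gefitinib, against 2.02 and 1.02 CPM with TGF-alpha and 1.09 and 1.59 CPM in control, with a log2 difference to TGF-alpha of -0.78 ± 0.46 (SE, edgeR adjusted p = 0.219).

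**Figure D5:**
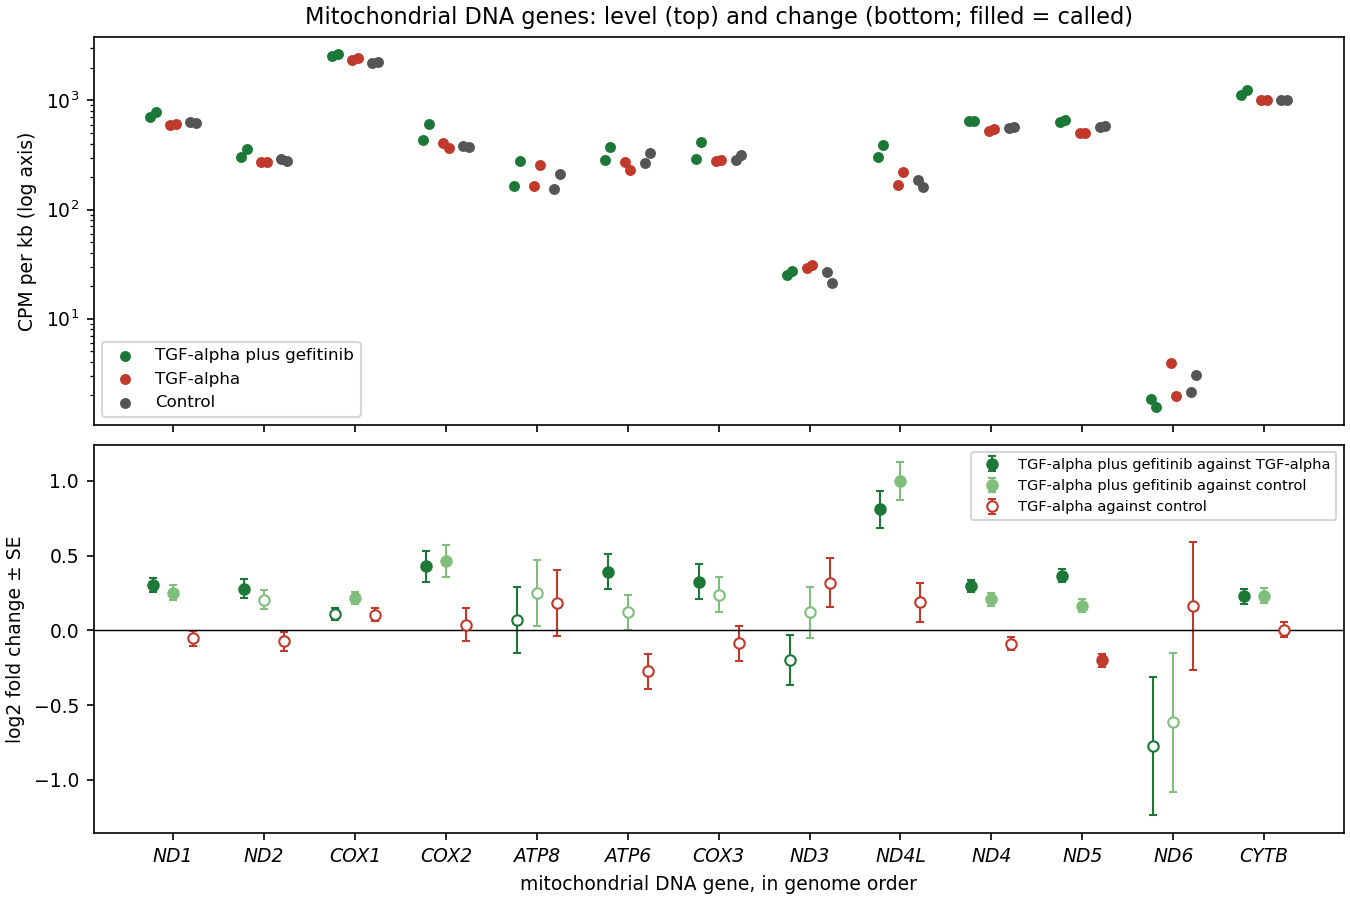
The upper panel gives CPM per kb on a log axis for each library and mitochondrial DNA gene, in genome order, and the lower panel gives the log2 fold change with its SE for the 3 comparisons, filled where edgeR called it. ND4L shows the largest rises, at 0.81 against TGF-alpha and 1.00 against control, ND5 is the only filled point for TGF-alpha against control, and ND6 has the widest error bars.

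Genes that serve the complexes without being subunits moved mostly by small amounts. Of 35 tested assembly factors outside the name pattern, 11 were higher and 0 lower with TGF-alpha plus gefitinib against TGF-alpha, 3 higher and 0 lower against control, and 1 higher and 4 lower with TGF-alpha against control. Cox11, which delivers copper to complex IV, had 7.88 and 7.36 CPM with TGF-alpha plus gefitinib against 4.47 and 3.56 CPM with TGF-alpha (log2 0.92, edgeR adjusted p = 0.00308). Ecsit, an assembly factor of complex I, was higher in the same comparison (log2 0.52, edgeR adjusted p = 0.00254). Of 76 mitochondrial ribosomal proteins, which make the translation machinery for the 13 mitochondrial mRNAs, 16 were higher and 0 lower with TGF-alpha plus gefitinib against TGF-alpha, 4 higher and 0 lower against control, and 3 higher and 4 lower with TGF-alpha against control. Mrps6 had the largest called change against control (38.2 and 43.2 CPM with TGF-alpha plus gefitinib, 27.6 and 29.2 CPM in control, log2 0.51, edgeR adjusted p = 0.00258). Of all tested genes, 17.0%, 5.27% and 15.9% were called higher in these 3 comparisons and 16.9%, 4.26% and 14.0% lower.

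The carriers and the fuel supply were mixed, and their counts are to be read against the same shares of all tested genes (17.0% higher and 16.9% lower, 5.27% and 4.26%, and 15.9% and 14.0%). Slc25a4, an ADP/ATP carrier of the inner membrane, had 470.5 and 446.7 CPM with TGF-alpha plus gefitinib, 318.2 and 324.9 CPM with TGF-alpha, and 407.5 and 398.3 CPM in control, so it fell by 0.33 with TGF-alpha against control (edgeR adjusted p = 7.47e-05) and was higher by 0.51 with TGF-alpha plus gefitinib against TGF-alpha (edgeR adjusted p = 7.13e-07). Vdac1, a channel of the outer membrane, went the other way, with 162.9 and 165.8 CPM with TGF-alpha plus gefitinib, 204.9 and 216.5 CPM with TGF-alpha, and 175.5 and 166.7 CPM in control (log2 -0.36 and 0.30, edgeR adjusted p = 9.35e-05 and 4.71e-04, for TGF-alpha plus gefitinib against TGF-alpha and TGF-alpha against control). Of the 15 tested genes for electron carriers and ATP export, 3 were higher and 2 lower with TGF-alpha plus gefitinib against TGF-alpha, 3 and 0 against control, and 4 and 2 with TGF-alpha against control. Of 18 genes of pyruvate dehydrogenase and the tricarboxylic acid cycle, 4 were higher and 1 lower, 0 and 0, and 2 and 3 in the same order of comparisons, with Pdhx (log2 0.60) highest and Dlst (log2 -0.25) called lower in the first. Of 13 genes of ubiquinone synthesis, 2 and 0, 1 and 0, and 0 and 1 were higher and lower. Of 25 genes of mitochondrial protein import, 7 and 0, 1 and 0, and 0 and 2 were higher and lower, with the import motor Hspa9 at 541.9 and 559.8 CPM with TGF-alpha plus gefitinib, 423.2 and 397.6 CPM with TGF-alpha and 543.2 and 525.6 CPM in control (log2 0.42 for TGF-alpha plus gefitinib against TGF-alpha, edgeR adjusted p = 5.82e-06).

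Among genes that regulate mitochondrial transcription and the response to oxygen, the largest called change at a mean of at least 5 CPM was in Epas1, which encodes HIF-2 alpha. It had 17.5 and 18.7 CPM with TGF-alpha plus gefitinib, 50.7 and 46.4 CPM with TGF-alpha, and 18.6 and 18.4 CPM in control. It rose with TGF-alpha against control (log2 1.39 ± 0.10 SE, edgeR adjusted p = 3.69e-08) and fell by 1.42 with TGF-alpha plus gefitinib against TGF-alpha (SE 0.10, edgeR adjusted p = 2.89e-08), and TGF-alpha plus gefitinib and control overlapped. In the list of 16 tested regulators, 1 was higher and 3 lower with TGF-alpha plus gefitinib against TGF-alpha (17.0% and 16.9% of all tested genes), 0 and 0 against control (5.27% and 4.26%), and 2 and 3 with TGF-alpha against control (15.9% and 14.0%). Lrpprc, which stabilises mitochondrial mRNAs, was higher with TGF-alpha plus gefitinib than with TGF-alpha (53.5 and 50.3 CPM against 38.0 and 38.2 CPM, log2 0.45, edgeR adjusted p = 4.83e-04). Of the 33 tested genes for maintenance and expression of the mitochondrial DNA, 3 were higher and 1 lower with TGF-alpha plus gefitinib against TGF-alpha, 0 and 0 against control, and 1 and 2 with TGF-alpha against control. Where a count of 0 is given for these lists, DESeq2 also called 0, and an unadjusted edgeR p under 0.05 gave 0 too, apart from 3 higher and 1 lower among the genes for the mitochondrial DNA and 3 higher and 3 lower among the regulators, both with TGF-alpha plus gefitinib against control.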

How the data were processed

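RNA of 6 libraries of cultured mouse chondrocytes, 2 in each of 3 groups by their titles, had been sequenced on an Ion Proton, per the labels' protocols. The authors deposited whole-number read counts per entry, not normalized and not pooled over replicates. Per the submitters' processing notes the genome was GRCm38, with the aligner, counter, filters and strand use not given in the sources used here. Reads of near-identical copies or overlapping genes may therefore have been placed in a way that is not known. In a blastn 2.17.0 search, 48 of the 105 genes shared at least 100 bases at 95% identity or more with transcripts of another annotated gene. The called genes Ndufa13, Cox7c and Cox7a2l were among these.

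Counts were analysed with edgeR 4.0.16 in R 4.3.3. The filterByExpr function (minimum count 10) retained 15362 entries, libraries were scaled by TMM, and a quasi-likelihood model with group as its only term used all 6 libraries (3 residual and 11.2 prior degrees of freedom, a coefficient of variation of 6.08% between libraries). Each pair of groups was tested two-sided, with Benjamini-Hochberg adjustment over all tested genes. CPM were counts scaled to a common library size with the TMM factors. Gene positions and the length of the principal transcript came from GENCODE M21 (GRCm38), in which 104 of the 105 genes were found by symbol and 1 by an older symbol, and promoters from RefSeq. Depth limits the precision: total counts were between 12317407 and 16096263, and ND6 had as few as 10 counts. Replicates differed by more than counting noise (chi-square per degree of freedom 3.83 with TGF-alpha plus gefitinib, 3.57 with TGF-alpha and 3.03 in control). The fit was also run on simulated counts with known changes and a spread taken from the same fit, and the outcome is not reported here.

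The genes and the gene lists were chosen with earlier results of these data known. Named by rule were the 6 called nuclear genes with the largest change at a mean of at least 5 CPM in each comparison, the highest gene of each complex, all detected isoform pairs, all mitochondrial genes and up to 2 called genes of each list. Other called genes, among them Sdhb, Ndufv2, Ndufs7, Atp5c1, Atp5d, Atp5e, Atp5j2, Uqcr10 and Uqcr11, were picked after their values were seen. The 13 alternatives were no filter on low counts, RLE size factors, upper-quartile scaling, mRNA entries with the mitochondrial genes only, a replicate block, only the 4 libraries compared, DESeq2 1.42.0, and leaving out each of the 6 libraries.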

Additional observations from a re-analysis of the deposited data

How the results depend on the processing

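The deposited data have 2 libraries a group, and no source says what the replicate numbers mark. Deviations of same-numbered libraries from their group means correlated across genes at -0.02 between TGF-alpha plus gefitinib and TGF-alpha. The value was 0.01 between TGF-alpha plus gefitinib and control, and 0.0034 between TGF-alpha and control. No common deviation by number was thus seen over all genes. Counting noise lowers such correlations, so they cannot show whether the numbers pair the samples. With the replicate block, 23 nuclear genes were higher and 3 lower with TGF-alpha plus gefitinib against TGF-alpha, 21 and 0 against control, and 14 and 3 with TGF-alpha against control, and for the mitochondrial genes 10 and 0, 7 and 0, and 1 and 1.

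Leaving out each library in turn gave, with TGF-alpha plus gefitinib against TGF-alpha, 15 to 25 nuclear genes higher and 2 to 3 lower and 6 to 9 mitochondrial genes higher and 0 lower. With TGF-alpha plus gefitinib against control the ranges were 7 to 22 nuclear genes higher and 0 lower, and 3 to 9 mitochondrial genes higher and 0 lower. With TGF-alpha against control they were 5 to 20 nuclear genes higher and 0 to 4 lower, and 0 to 1 mitochondrial genes higher and 1 to 2 lower. In those fits fewer samples were used and the group left with 1 library was assumed to vary like the others. Leaving out a library of the groups compared also lowered the share of all tested genes called, in both directions. DESeq2 called 16 nuclear genes higher with TGF-alpha plus gefitinib against TGF-alpha, 17 against control, and 7 higher and 2 lower with TGF-alpha against control, where upper-quartile scaling gave 10 higher. For the mitochondrial genes in that last comparison, no filter and mRNA entries only each gave 1 higher and 2 lower, and the 4 libraries alone gave 2 lower. DESeq2 also called fewer of all genes. The cause of the other differences was not tested.

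Among single genes, 1999 of the values under an alternative kept direction and call, 362 lost the call, 34 gained it and 36 changed sign. None of those 36 was of a called value. The 1999 include genes called in neither fit. Of the nuclear genes called higher, 9 of 26 held in all 13 alternatives with TGF-alpha plus gefitinib against TGF-alpha. Against control 7 of 26 held, and with TGF-alpha against control 4 of 19. With TGF-alpha against control the values of a changed sign were, for Atp5b, 0.0109 with mRNA entries only and 0.000173 with the block, for CYTB -0.00144 without a filter, -0.0225 with upper-quartile scaling and -0.000347 with the 4 libraries, and with upper-quartile scaling -0.0162 for Cox4i1 and -0.0194 for Cox7a2l. The others came from leaving out a library, where log2 values spanned zero with TGF-alpha against control for Atp5b (-0.0187 to 0.0148), Cox4i1 (-0.0374 to 0.0541), Cox7a2l (-0.0143 to 0.0256), ATP8 (-0.174 to 0.469), Atp5g2 (-0.0648 to 0.691), COX2 (-0.0417 to 0.113), ND4L (-0.0274 to 0.375), ND6 (-0.411 to 0.569) and Ndufa13 (-0.0692 to 0.0289), with TGF-alpha plus gefitinib against TGF-alpha for ATP8 (-0.356 to 0.426), Atp5g2 (-0.0308 to 0.725), Cox6b1 (-0.193 to 0.0532) and Cox7b (-0.0745 to 0.127), and against control for ATP6 (-0.0948 to 0.305), ATP8 (-0.176 to 0.59), COX3 (-0.0538 to 0.481), Cox6b1 (-0.0118 to 0.246), ND3 (-0.0495 to 0.294) and Ndufaf7 (-0.125 to 0.0953). The scalings are built to align the bulk of the genes, so the median of all tested genes cannot show whether a scaling is right. With TGF-alpha against control that median was 0.0039 with TMM and -0.0226 with upper-quartile scaling, beside 0.0383 for the nuclear genes with TMM. Of the medians of the nuclear and mitochondrial genes under an alternative, 67 stayed within the spread between replicates and 11 moved by more.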

Other observations

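Ppargc1a, the coactivator known for driving the formation of mitochondria, was picked after its values were seen. It lay below the mean of 5 CPM required above for naming by size of change, so its fold changes rest on few counts. It had 3.22 and 4.40 CPM with TGF-alpha plus gefitinib, 0.94 and 0.44 CPM with TGF-alpha, and 2.81 and 1.53 CPM in control. It was higher with TGF-alpha plus gefitinib than with TGF-alpha (log2 2.45 ± 0.43 SE, edgeR adjusted p = 0.000463) and lower with TGF-alpha than in control (log2 -1.62 ± 0.46 SE, edgeR adjusted p = 0.0153, a call lost without control 1, log2 -1.14, or TGF-alpha 2, log2 -1.18). Nrf1, Gabpa and Tfam, which act on promoters of mitochondrial genes and on the mitochondrial DNA, did not follow it: Gabpa was lower with TGF-alpha plus gefitinib than with TGF-alpha (log2 -0.23, edgeR adjusted p = 0.0371), and Nrf1 and Tfam were called in no comparison.

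ATP8 lay higher in the library numbered 2 of every group, with 33.2 and 56.8 CPM in TGF-alpha plus gefitinib 1 and 2, 33.3 and 52.0 CPM in TGF-alpha 1 and 2, and 31.3 and 43.4 CPM in control 1 and 2. The spread between replicates of this gene was thus as wide as any difference between its groups.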
